A study of Mus musculus with 8 samples.

Results

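The tumour necrosis factor (TNF) ligand and receptor superfamilies were examined in MIN6 cells, a mouse pancreatic β-cell line, in which the zinc-finger transcription factor Klf4 had been overexpressed. The genes were found by symbol: those named Tnfsf or Tnfrsf with a number, together with Tnf, Lta, Ltb, Ltbr, Fas, Fasl, Cd40, Cd40lg, Cd27, Cd70, Ngfr and Eda2r. This gave 43 of the 55536 genes in the count table, 17 ligands and 26 receptors.

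Ligands of this superfamily are mostly trimers that are made as membrane proteins and can be released by proteases. Their receptors carry cysteine-rich domains outside the cell and differ inside it: some hold a death domain, which recruits adaptors such as FADD and TRADD, others bind TRAF proteins and signal to NF-kB and MAP kinases, and decoy receptors bind ligand without a full signalling tail. In pancreatic β cells, TNF is best known as a cytokine of islet inflammation that acts together with interleukin-1 and interferon-γ.

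Both groups were wild-type MIN6 cells transfected for 48 h with a Lipofectamine reagent. The 4 control cultures received the empty vector pcDNA 3 and the 4 others received pGloMyc-Klf4, so that the plasmid backbone and Klf4 changed together, and these cannot be told apart. Libraries of polyadenylated RNA fell into 2 batches by label, with replicates 1 and 2 of each group in batch 1 and replicates 3 and 4 in batch 2. The replicates were called biological by the submitters, but all come from 1 cell line under transient transfection, and the share of cells that took up a plasmid was not given in the sources used here.

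Each library held between 45417853 and 52731176 counts. Klf4 lay between 36.1 and 42.8 CPM (the read count scaled by the total of the library and its TMM factor) in the control libraries and between 4529 and 5849 CPM in the Klf4 libraries (6.97 on the log2 scale, SE 0.07; adjusted p 1.21e-25 in edgeR), and the sources used here do not tell plasmid from endogenous transcripts. All 10 β-cell markers listed were expressed, with a summed level of 25318 to 32090 CPM in control and 23640.5 to 32340 CPM in Klf4 libraries. Genes were tested with edgeR's quasi-likelihood test with a term for batch, and called changed at a Benjamini-Hochberg adjusted p under 0.05 over all 18266 genes that passed a filter on low counts. Of those genes, 3856 were higher and 2828 lower in Klf4 libraries, so that 57.7% of calls were higher. Library factors set from abundant genes alone gave 4387 higher and 1638 lower, or 72.8% higher. Of the β-cell markers, 5 were lower (Iapp, Pdx1, Mafa, G6pc2 and Slc30a8) and 0 higher by edgeR, with 0 higher also at an unadjusted p under 0.05 and by DESeq2.

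More receptor genes were higher than lower in the Klf4 libraries, and most ligand genes were at few or no counts. Of the 43 members, 26 passed the filter and were tested, and 13 changed, 12 higher and 1 lower. Over all tested genes 36.6% were called, 21.1% higher and 15.5% lower. The median log2 fold change was 0.41 over the tested members and -0.01 over all tested genes. Among the members, Cd40, Tnfrsf8, Ltb and Tnfrsf13b had fewer than 4 control libraries above the filter level, at 3, 0, 3 and 2. They passed it with the help of Klf4 libraries, and Tnfrsf8 only through them. The numbers of called members therefore describe the tested genes and not the families as a whole. Of the 22 members with all 4 control libraries above that level, 10 were higher and 1 was lower. In bulk RNA, a gene expressed in more cells and a gene expressed more strongly per cell cannot be told apart.

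**Figure D1:**
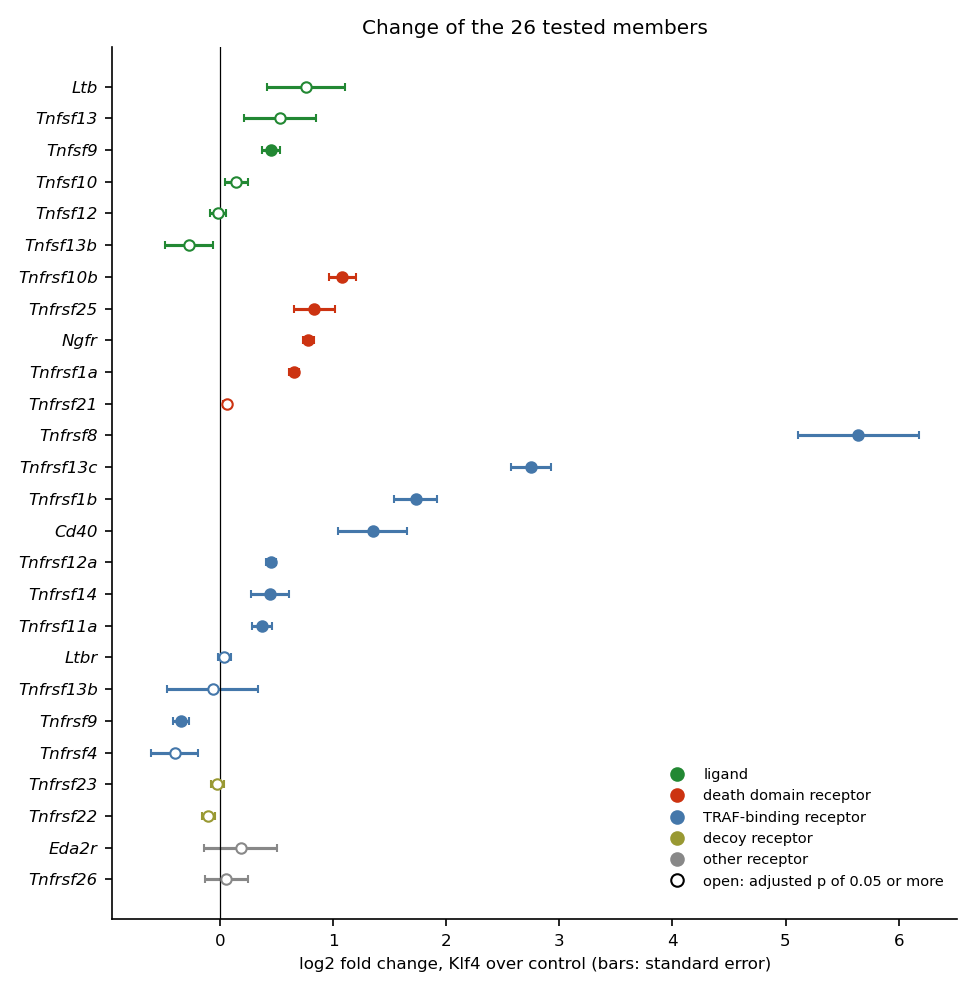
Log2 fold change (Klf4 over control, horizontal axis) of the 26 tested members with its standard error, grouped and coloured by role; filled points passed the adjusted threshold. The 4 filled death domain receptors and 7 of 8 filled TRAF-binding receptors lie to the right of 0, and the decoy receptors lie at -0.10 and -0.02. Among all tested genes, 21.1% were called higher and 15.5% lower.

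By role, 4 of 5 tested death domain receptors were higher, against 21.1% of all tested genes. Of 11 tested TRAF-binding receptors, 7 were higher and 1 was lower, against 21.1% and 15.5% of all tested genes. The 7 include Cd40 and Tnfrsf8, which had 3 and 0 control libraries above the filter level, so Tnfrsf8 could be tested only through Klf4 libraries. The only ligand called, of 6 tested, was Tnfsf9, which was higher. Of the 2 tested decoy receptors 0 were called by edgeR, as were 0 of Eda2r and Tnfrsf26, the tested receptors grouped here as other. None of these 4 passed an unadjusted p under 0.05 or the DESeq2 test. Counting Eda2r as a TRAF-binding receptor would add an uncalled gene to that class. A difference between these classes was not tested.

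Tnfrsf13c showed the largest rise among members with counts in every control library. It encodes the BAFF receptor, known for B-cell survival, and lies on chromosome 15, 82221743 to 82224369, minus strand (GRCm38, ENSMUSG00000068105). Control libraries held 1.04, 1.27, 0.669 and 1.28 CPM, and Klf4 libraries 5.84, 4.90, 9.01 and 9.53 CPM. The groups did not overlap, and the higher Klf4 values were those of batch 2. The means were 1.07 ± 0.288 and 7.32 ± 2.29 CPM (SD, n = 4), a 6.86-fold difference (2.75 on the log2 scale, SE 0.17; adjusted p 1.24e-11 in edgeR).

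Tnfrsf8 was close to undetected in control cells and present in every Klf4 library. It encodes CD30, a receptor of activated lymphocytes, on chromosome 4, 145267137 to 145315164, minus strand (ENSMUSG00000028602). Counts were 1, 0, 2 and 0 in control and 56, 28, 54 and 45 in Klf4 libraries. With 3 counts in all control libraries together, the ratio of summed counts was 58.3, with an exact 95% interval of 19.6 to 285 that covers counting error only. The edgeR log2 fold change was 5.64 (SE 0.53, adjusted p 1.10e-08), a value that rests on the small prior count added to the control libraries. It was 6.54 without control replicate 3, which held 2 of the 3 control counts.

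Tnfrsf1b lies 20.3 kb from Tnfrsf8 on the same strand of chromosome 4 (145213463 to 145246870, ENSMUSG00000028599) and also rose. It encodes TNFR2, the TNF receptor without a death domain. Values were 0.722, 0.677, 0.689 and 0.476 CPM in control and 2.05, 1.88, 2.38 and 2.24 CPM in Klf4 libraries. Every Klf4 library was above every control library, with means of 0.641 ± 0.112 and 2.13 ± 0.218 CPM (SD, n = 4; 1.73 on the log2 scale, SE 0.19; adjusted p 1.33e-07 in edgeR).

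Cd40 was higher in every Klf4 library, and its lowest control values were those of batch 2. CD40 is the receptor for CD40 ligand on antigen-presenting and epithelial cells, and its gene is on chromosome 2, 165055627 to 165072948, plus strand (ENSMUSG00000017652). The control libraries of batch 1 held 0.849 and 0.513 CPM, and those of batch 2 only 0.162 and 0.290 CPM, against 1.06, 1.06, 1.22 and 1.06 CPM in Klf4 libraries. The groups did not overlap (1.35 on the log2 scale, SE 0.31; adjusted p 0.0013 in edgeR). Within batches the log2 fold change was 0.64 (SE 0.34) and 2.32 (SE 0.40), a difference that did not pass the interaction test over all genes (adjusted p 0.173).

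Tnfrsf10b, the gene of the TRAIL death receptor of the mouse, rose in every Klf4 library. It lies on chromosome 14, 69767472 to 69784411, plus strand (ENSMUSG00000022074). Control libraries held 1.87, 2.24, 2.70 and 2.22 CPM and Klf4 libraries 4.04, 4.06, 5.83 and 5.29 CPM. The groups did not overlap (means 2.25 ± 0.340 and 4.81 ± 0.899 CPM, SD, n = 4; 1.08 on the log2 scale, SE 0.12; adjusted p 9.02e-08 in edgeR).

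**Figure D2:**
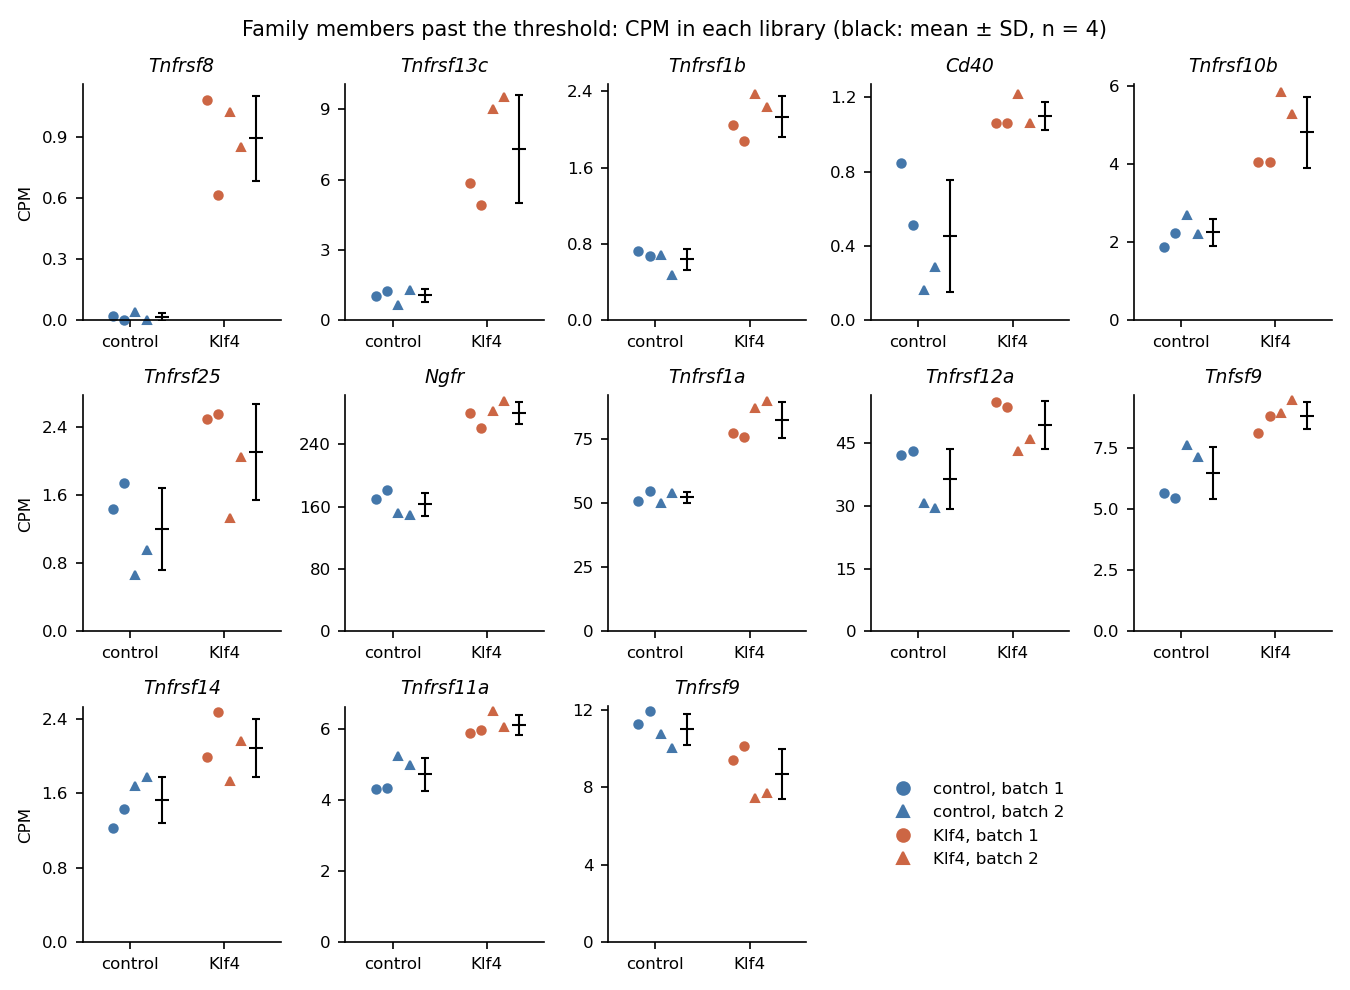
CPM (vertical axes, from 0) of the 13 called members in each of the 8 libraries, by group (horizontal axes), with the mean ± SD of 4 libraries in black and batches shown by the marker. Control and Klf4 libraries overlap for Tnfrsf25, Tnfrsf14 and Tnfrsf9 and are separate for the other 10 genes, or 76.9% of the 13, against 66.4% of all called genes.

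Of the receptors at higher levels in control cells, Ngfr, Tnfrsf1a and Tnfrsf12a rose, while Tnfrsf21 and Ltbr were not called. Ngfr, the p75 neurotrophin receptor with a death domain, is on chromosome 11, 95568818 to 95587735, minus strand (ENSMUSG00000000120). It held 169, 181, 152 and 149 CPM in control and 279, 261, 283 and 295 CPM in Klf4 libraries. The groups were well apart, and the means of 163 ± 15.1 and 280 ± 14.2 CPM (SD, n = 4) differed 1.72-fold (0.78 on the log2 scale, SE 0.05; adjusted p 2.79e-12 in edgeR).

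Tnfrsf1a encodes TNFR1, the death domain receptor through which soluble TNF acts on most cells (chromosome 6, 125349362 to 125362484, plus strand, ENSMUSG00000030341). Its control values of 50.9, 54.6, 50.3 and 53.8 CPM all lay below its Klf4 values of 77.2, 75.7, 87.1 and 90.01 CPM. The log2 fold change was 0.65 (SE 0.04, edgeR adjusted p 2.69e-11). The neighbouring Ltbr, the lymphotoxin β receptor 35.5 kb away, had 20.6 to 24.5 CPM in control and 21.5 to 24.7 CPM in Klf4 libraries and was not called (0.04 on the log2 scale, SE 0.06; adjusted p 0.626 in edgeR).

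Tnfrsf12a encodes Fn14, the receptor for TWEAK, on chromosome 17. Batch 1 libraries held 42.0 and 42.9 CPM without and 54.8 and 53.4 CPM with Klf4. Batch 2 libraries held 30.7 and 29.5 CPM without and 43.1 and 45.9 CPM with it. It was higher in every Klf4 library, although batch 2 libraries lay below batch 1 libraries in both groups (0.45 on the log2 scale, SE 0.04; adjusted p 2.39e-08 in edgeR).

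The other called receptors changed less or with overlap. Tnfrsf25 (DR3, a death domain receptor for TL1A) had 1.44, 1.75, 0.669 and 0.952 CPM in control and 2.49, 2.56, 1.33 and 2.05 CPM in Klf4 libraries. The groups overlapped across batches but not within them (0.84 on the log2 scale, SE 0.18; adjusted p 0.000919 in edgeR). Without the batch term its adjusted p was 0.0706.

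Tnfrsf11a encodes RANK, the receptor for RANK ligand in bone and lymphoid tissue. It went from 4.31 to 5.25 CPM in control to 5.90 to 6.52 CPM in Klf4 libraries (0.37 on the log2 scale, SE 0.09; adjusted p 0.00168 in edgeR). Tnfrsf14, or HVEM, a receptor of LIGHT and BTLA, had 1.23 to 1.78 CPM in control and 1.73 to 2.47 CPM in Klf4 libraries. Its groups overlapped, and its call at an adjusted p of 0.0418 (edgeR, log2 fold change 0.44, SE 0.17) was lost with the replicate number as a block (adjusted p 0.057), with the DESeq2 Wald test (adjusted p 0.0652) and without the batch term (adjusted p 0.0871). It was also lost without Klf4 replicate 1, 2 or 4 or control replicate 1, 2 or 3, with adjusted p-values of 0.0574 to 0.176 in edgeR.

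Tnfrsf9 was the 1 member that fell. It encodes CD137, a costimulatory receptor, on chromosome 4, 150914562 to 150946102, plus strand (ENSMUSG00000028965). Values were 11.3, 11.9, 10.8 and 10.02 CPM in control and 9.44, 10.2, 7.47 and 7.73 CPM in Klf4 libraries. The Klf4 libraries were lower within each batch, and the groups overlapped by a narrow margin across batches (-0.35 on the log2 scale, SE 0.07; adjusted p 0.000443 in edgeR). The gene lies within a region also annotated to Camta1, without shared exons.

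Tnfsf9, the ligand of CD137, moved the other way. It held 5.65, 5.46, 7.62 and 7.14 CPM in control and 8.12, 8.79, 8.93 and 9.44 CPM in Klf4 libraries, with no overlap (0.45 on the log2 scale, SE 0.08; adjusted p 0.000107 in edgeR). An exon of Gm11110 on the other strand overlaps Tnfsf9, and since the strand setting of the counting was not given in the sources used here, reads of the pair cannot be told apart.

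The promoters of the 3 members of largest rise among those that passed the filter and have a RefSeq entry, and of Ngfr as the most abundant member per length, are printed to show the sequence next to the start sites of genes that rose together. Each is the 250 bases before the RefSeq start in GRCm38.p6, 5′ to 3′ on the gene's own strand. Capitals mark CACCC and its reverse complement GGGTG, the core of the CACCC box that Krüppel-like factors are known to bind. The windows are chr15:82224381-82224630 for Tnfrsf13c, chr4:145315165-145315414 for Tnfrsf8, chr4:145246871-145247120 for Tnfrsf1b and chr11:95587699-95587948 for Ngfr, all on the minus strand.
Tnfrsf13c: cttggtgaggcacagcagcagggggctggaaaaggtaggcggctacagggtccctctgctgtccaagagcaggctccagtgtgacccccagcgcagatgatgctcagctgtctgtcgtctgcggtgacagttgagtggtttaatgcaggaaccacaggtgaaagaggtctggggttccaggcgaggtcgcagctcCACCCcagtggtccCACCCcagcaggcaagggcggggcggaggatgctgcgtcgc
Tnfrsf8: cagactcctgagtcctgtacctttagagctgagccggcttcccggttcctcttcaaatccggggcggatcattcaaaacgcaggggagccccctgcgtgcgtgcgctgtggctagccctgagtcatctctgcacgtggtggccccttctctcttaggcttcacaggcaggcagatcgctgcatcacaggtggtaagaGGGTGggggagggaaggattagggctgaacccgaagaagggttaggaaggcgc
Tnfrsf1b: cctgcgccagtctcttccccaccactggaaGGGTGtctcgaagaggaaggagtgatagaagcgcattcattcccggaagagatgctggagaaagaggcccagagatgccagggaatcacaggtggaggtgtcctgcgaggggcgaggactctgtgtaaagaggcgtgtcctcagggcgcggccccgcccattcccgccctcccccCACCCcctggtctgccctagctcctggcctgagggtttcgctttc
Ngfr: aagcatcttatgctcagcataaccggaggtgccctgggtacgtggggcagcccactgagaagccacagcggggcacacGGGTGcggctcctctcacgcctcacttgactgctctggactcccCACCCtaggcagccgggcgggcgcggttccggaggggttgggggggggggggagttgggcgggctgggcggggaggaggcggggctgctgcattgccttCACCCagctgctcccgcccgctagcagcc

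These windows held 2, 1, 2 and 3 matches to CACCC on either strand, in the order printed. Of all 32851 RefSeq promoter windows of this length, 52.0% held at least 1. RefSeq windows were found for 33 of the 43 members, among them 9 of the 12 that rose, of which 8 held CACCC in at least 1 window. Of the 10 tested and uncalled members with a window, 5 held it, as did 12 of the 13 that were not tested. Tnfrsf9, the 1 member that fell, also held it. The longer form CCACACCC was in no member's window and in 3.20% of all windows. The GC box CCGCCC is a motif of Sp and Krüppel-like factors that can share letters with a CACCC match. It was in the windows of 6 of the 9 members that rose, 5 of the 10 uncalled members and Tnfrsf9. In all, 17 of the 33 members and 32.7% of all windows held it. The 33 members had 37 windows, and a member was counted if any of its windows held the motif. The shares of all windows are per window, so the measures are not alike. A match describes these letters only, and binding was not measured here.

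The other 13 tested members were not called. Tnfrsf21 (DR6, a death domain receptor of the nervous and immune systems) held 67.6 to 69.2 CPM in control and 69.1 to 74.6 CPM in Klf4 libraries, a log2 difference of 0.06 (SE 0.03, edgeR adjusted p 0.169). With factors from abundant genes it was 0.10, with an adjusted p of 0.03 in edgeR. Tnfrsf4 (OX40, a costimulatory receptor) had 0.993 to 1.42 CPM and 0.570 to 1.10 CPM, a log2 difference of -0.40 (SE 0.21). Tnfrsf13b (TACI, another receptor for BAFF) had under 0.5 CPM in every library, with within-batch values of 0.69 (SE 0.59) and -0.71 (SE 0.54).

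The decoy genes Tnfrsf22 and Tnfrsf23 and their neighbour Tnfrsf26 form a cluster on mouse chromosome 7, with gaps of 6.08 and 16.1 kb. Their log2 differences were -0.10, -0.02 and 0.06, with standard errors of 0.06, 0.06 and 0.19, and none was called. Tnfrsf23 was lower in batch 2, at 11.3 and 11.8 CPM against 16.3 and 15.8 CPM in control, and likewise at 11.5 and 11.8 against 15.2 and 15.7 CPM in Klf4 libraries. These are closely related copies, and reads could be split between them. Tnfrsf26 and Tnfrsf23 also share exon sequence with E230032D23Rik on the other strand.

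Among ligands, Tnfsf12 (TWEAK) was the most abundant per length, followed by Tnfsf9. Tnfsf12 held 12.5 to 15.4 CPM in control and 12.8 to 15.1 CPM in Klf4 libraries, while its receptor gene Tnfrsf12a rose. Its exons overlap those of the read-through gene Tnfsfm13, as do those of Tnfsf13 (APRIL), so both counts are uncertain. Tnfsf10 (TRAIL) held 3.61 to 5.19 CPM and 4.62 to 5.64 CPM, a log2 difference of 0.15 (SE 0.10, edgeR adjusted p 0.277), while its receptor gene Tnfrsf10b rose. Tnfsf13b (BAFF) held 0.913 to 1.30 CPM and 0.722 to 1.08 CPM, a log2 difference of -0.27 (SE 0.22, edgeR adjusted p 0.362), while its receptor gene Tnfrsf13c rose. Ltb (lymphotoxin β) held 0.145 to 0.340 CPM and 0.367 to 0.552 CPM, apart but on 7 to 25 counts, and was not called (log2 difference 0.76, SE 0.34, edgeR adjusted p 0.0917). Tnfsf13 held 0.267 to 0.297 CPM and 0.331 to 0.512 CPM, likewise apart and not called (log2 difference 0.53, SE 0.32, edgeR adjusted p 0.215).

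Levels of different genes were compared as CPM per kb of exon. In control cells Ngfr stood highest at 47.3 ± 4.37, then Tnfrsf1a at 20.2 ± 0.825, Tnfrsf12a at 18.8 ± 3.71 and Tnfrsf21 at 16.7 ± 0.178 (SD, n = 4). Ngfr lay above the others in every library, while Tnfrsf12a overlapped both of its neighbours in this order. Ltbr at 9.60 and Tnfsf12 at 9.44 overlapped each other, and both lay above Tnfsf9 at 5.01. Tnfsf9 overlapped Tnfrsf9 at 4.04, which overlapped Tnfrsf22 at 3.81 and Tnfrsf23 at 3.49. In Klf4 libraries Ngfr reached 81.1 and Tnfrsf1a 31.8, and Tnfrsf13c moved from 0.521 to 3.57, close to the level of Tnfrsf22 at 3.54. Tnfrsf8 reached 0.259, which lay below Tnfrsf1b at 0.559 and overlapped Cd40 at 0.323.

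**Figure D3:**
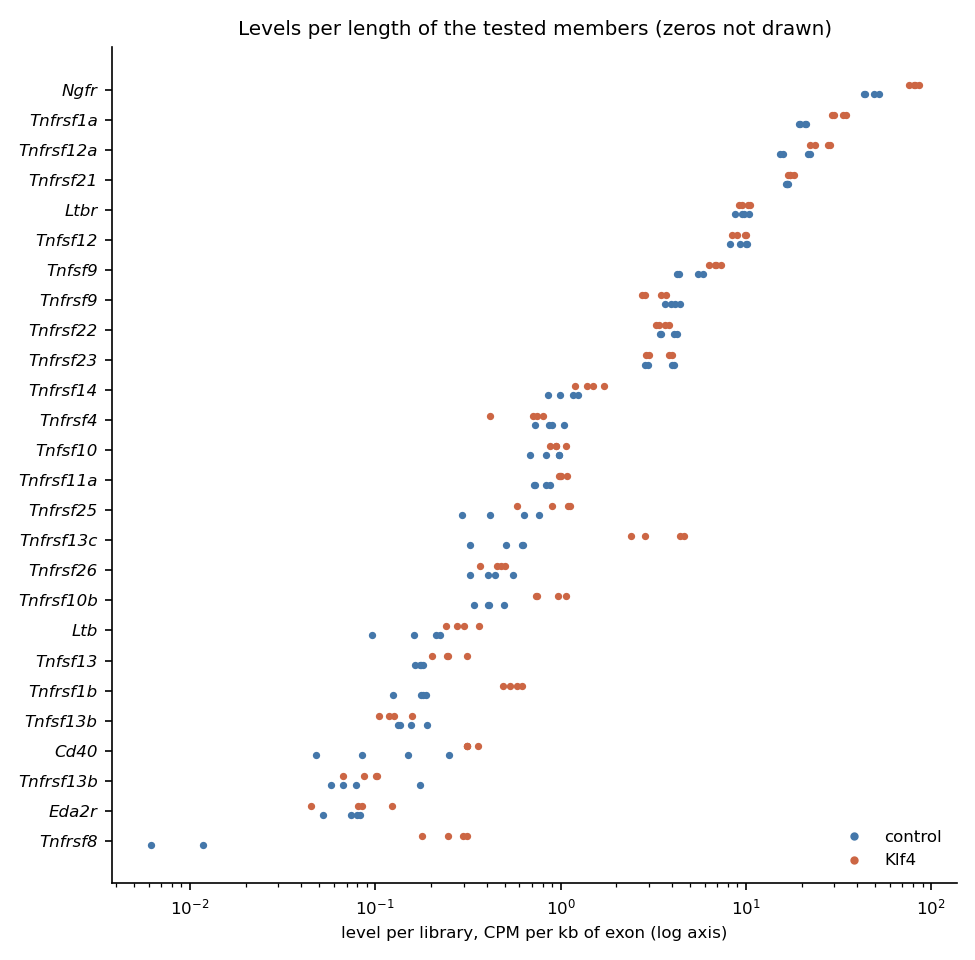
Level per length (CPM per kb of exon, log axis) of the 26 tested members in each library, ordered by the control mean; blue points are control and orange points Klf4 libraries, and values of 0 are not drawn. Ngfr stands highest in both groups, and Tnfrsf13c, Tnfrsf1b and Tnfrsf8 show the clearest shifts to the right.

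The remaining 17 members were under the filter and were not tested. Tnfsf4, Tnfsf8 and Cd40lg had no count in any library, which allows up to 0.0569 to 0.0661 CPM per library (3 counts, for counting error only). Cd27, Cd70, Tnfsf14, Tnfsf18, Tnfrsf17 and Tnfrsf19 had 1 to 9 counts in all 8 libraries together. The ligand genes of CD30 (Tnfsf8) and CD40 (Cd40lg) were not detectable at this depth in either group, and their receptor genes rose.

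Tnf itself stayed low but differed in counts between the groups. It had 3, 0, 0 and 4 counts in control and 12, 6, 27 and 16 in Klf4 libraries, with no overlap. The ratio of summed counts was 8.33 (exact 95% interval 3.81 to 21.6, counting error only), on a level of 0.295 ± 0.161 CPM in the Klf4 libraries (SD, n = 4). In the edgeR fit without a filter, over 33674 genes, its log2 fold change was 2.90 (SE 0.63, adjusted p 3.79e-05). Adjusted p-values of that fit cannot be set beside those of the main fit. For Ngfr it gave 2.73e-149 against 2.79e-12 in the main fit (edgeR), at log2 fold changes of 0.77 and 0.78. For Tnfrsf13c it gave 9.04e-98 against 1.24e-11, for Cd40 4.46e-07 against 0.0013, and for Tnfrsf11a 0.00197 against 0.00168 (edgeR). Its adjusted p-values for Tnf and the other untested members are therefore not read as calls. Lta, the neighbour of Tnf 1.16 kb away, had 5 to 11 counts in control and 3 to 10 in Klf4 libraries.

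Of the other untested members, Tnfrsf11b (osteoprotegerin, the decoy receptor of RANK ligand) had 0, 0, 1 and 0 counts in control and 4, 5, 3 and 5 in Klf4 libraries. Its ratio of summed counts was 16.2 (exact 95% interval 2.55 to 679), and in the unfiltered edgeR fit it had an adjusted p of 0.0683. Tnfsf11 (RANK ligand) had 4, 0, 1 and 6 counts against 7, 7, 10 and 9, with a ratio of 2.87 (exact 95% interval 1.41 to 6.29) and an adjusted p of 0.141 in that fit. Fas, the prototype death receptor, had 1, 0, 3 and 0 counts against 4, 2, 1 and 5, and Fasl, its ligand, 3 to 8 against 2 to 8. Tnfrsf18 (GITR) and Tnfsf15 (TL1A) had at most 8 counts in any library.

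**Figure D4:**
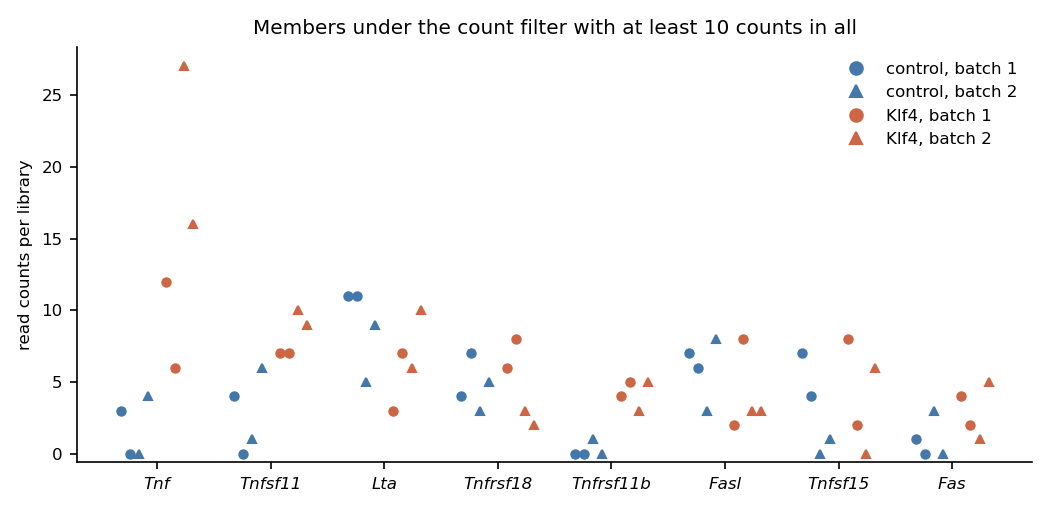
Read counts per library (vertical axis) of the 8 members under the count filter that had at least 10 counts in all, by gene, with control libraries in blue and Klf4 libraries in orange. Tnf reaches 27 counts in a Klf4 library and no more than 4 in control libraries, and the 2 groups overlap for Lta, Tnfrsf18, Fasl, Tnfsf15 and Fas.

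The effect of the plasmid was compared between the batches. The log2 fold change of Klf4 was 6.79 in batch 1 and 7.16 in batch 2 (interaction term 0.37, edgeR adjusted p 0.0057). Ngfr was the 1 of 26 tested members whose change differed between batches, against 0.766% of all tested genes: it rose by 0.62 (SE 0.04) in batch 1 and 0.94 (SE 0.04) in batch 2 (interaction term 0.32, edgeR adjusted p 0.00236). All 13 called members had the same sign in both batches, as had 6677 of the 6684 genes called in all. The calls were made over both batches together, so this follows largely from the call. Tnfrsf13c rose by 2.21 (SE 0.19) and 3.25 (SE 0.19), Tnfrsf1b by 1.49 and 1.98, Tnfrsf10b by 0.98 and 1.18, and Tnfrsf1a by 0.54 and 0.77. Their interaction tests did not pass, with edgeR adjusted p-values of 0.103, 0.709, 0.834 and 0.125. Tnfrsf8, Tnfsf9, Tnfrsf11a and Tnfrsf14 had the larger value in batch 1, at 6.05, 0.60, 0.46 and 0.74 against 5.36, 0.31, 0.29 and 0.17. Here too the interaction tests did not pass, with edgeR adjusted p-values of 0.939, 0.515, 0.813 and 0.546.

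**Figure D5:**
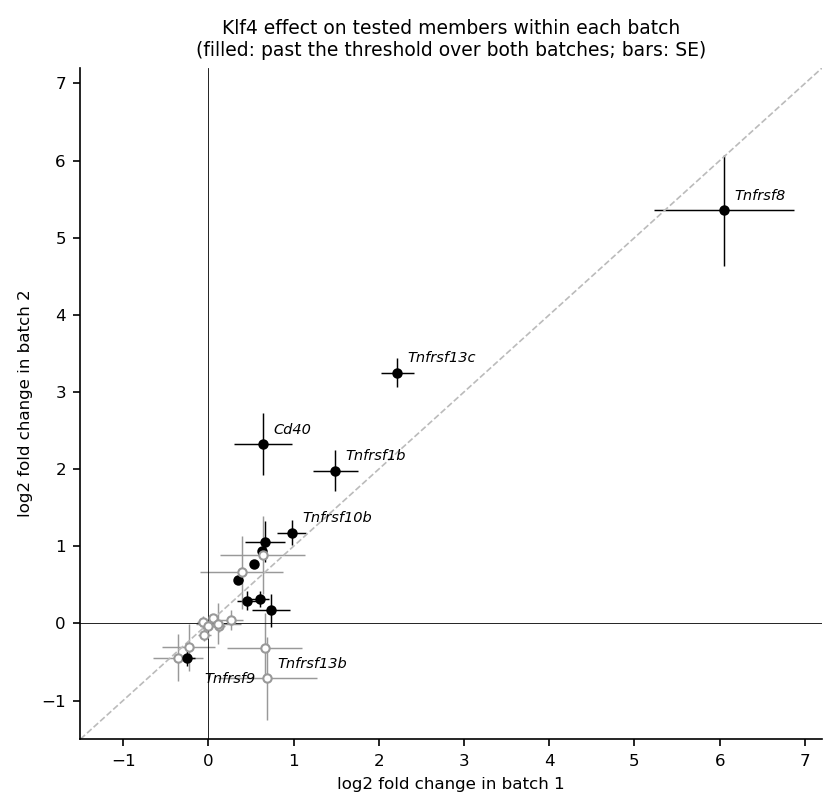
Log2 fold change of each of the 26 tested members in batch 1 (horizontal axis) and batch 2 (vertical axis), with standard errors; filled points are the 13 called members and the dashed line marks equal change. All filled points, called over both batches together, lie in the upper right or lower left quadrant, with Tnfrsf13c and Cd40 above the line.

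Genes that act with the family were taken from 3 lists by role, of 66 genes in all. Of these 52 were tested and 21 called, 13 higher and 8 lower. Over all tested genes 36.6% were called, 21.1% higher and 15.5% lower, and a difference from that share was not tested. Of 34 adaptors and signal transducers, 32 were tested, 5 were higher and 6 lower, with a median log2 fold change of -0.05. Map3k5 (ASK1, a kinase that acts below TNF receptors and oxidative stress) rose from 24.8, 26.03, 21.02 and 21.02 CPM to 35.4, 31.6, 34.3 and 36.04 CPM, with no overlap (0.57 on the log2 scale, SE 0.06; adjusted p 6.27e-08 in edgeR). Tnfaip3 (A20, a feedback inhibitor of NF-kB) fell from 5.97, 5.89, 5.47 and 4.49 CPM to 4.08, 3.80, 3.99 and 3.94 CPM (-0.46 on the log2 scale, SE 0.10; adjusted p 0.000849 in edgeR). Its partner gene Tnip1 rose, by 0.27 (SE 0.03). Smaller changes were called higher for Casp8 (0.24), Ikbkb (0.17) and Ripk1 (0.15), and lower for Map3k14 (-0.21), Mlkl (-0.17), Tab2 (-0.15), Cflar (-0.14) and Birc2 (-0.10).

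With the replicate number as a block, Map3k14, Mlkl and Birc2 lost their calls (edgeR adjusted p 0.071, 0.0543 and 0.0718). With factors from abundant genes these 3 and Cflar lost theirs (edgeR adjusted p 0.113, 0.117, 0.233 and 0.0959). Without the batch term 10 of the 21 list genes called were still called. Leaving out 1 library also ended calls: Mlkl without Klf4 replicate 1 or 2 or control replicate 1 or 4, and Birc2 without Klf4 replicate 1 or 4 or control replicate 4. Casp8 was lost without replicate 3 of either group, and Cflar without Klf4 replicate 4 or control replicate 3. Map3k14 was called in 4 of 15 alternatives. Traf1, whose transcript is induced through NF-kB in many cells, had no counts in any control library and 0, 8, 5 and 5 with Klf4.

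Of 19 target genes that TNF is known to induce through NF-kB, 11 were tested. Of these, 5 were higher and 2 lower, against 21.1% and 15.5% of all tested genes. The median log2 fold change was 0.11. Tnfaip2 rose from 1.32, 1.09, 2.41 and 2.17 CPM to 6.46, 6.82, 12.2 and 10.4 CPM, with no overlap (2.37 on the log2 scale, SE 0.11; adjusted p 1.90e-14 in edgeR). It shares exon positions with Gm40578 on the other strand. Cxcl10, a chemokine gene, fell from 1.49, 1.52, 0.710 and 0.683 CPM to 0.967, 0.706, 0.399 and 0.417 CPM, lower within each batch (-0.81 on the log2 scale, SE 0.22; adjusted p 0.00599 in edgeR). The inhibitor genes Nfkbie (0.31) and Nfkbia (0.14), Irf1 (0.27) and Nfkb2 (0.11) were higher and Csf1 (-0.17) was lower. Ccl20, Cxcl1, Cxcl2, Cxcl5, Ccl2, Ccl5, Il6 and Vcam1 were under the filter. Nfkbia lost its call without Klf4 replicate 4 or control replicate 2, and Nfkb2 was called in 6 of 15 alternatives. Csf1 lost its call with factors from abundant genes (edgeR adjusted p 0.0539). Cxcl10 was not called without the batch term (edgeR adjusted p 0.137), and it shares exon positions with Art3 on the other strand, as Irf1 does with Gm17334 and Nfkb2 with Psd.

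Of 13 related genes outside the symbols used here, 9 were tested, 3 were higher and 0 lower by edgeR, with 0 lower also at an unadjusted p under 0.05 and by DESeq2. The shares of all tested genes were 21.1% higher and 15.5% lower, and a difference from them was not tested. Eda, which encodes the TNF-family ligand ectodysplasin (a splice form of which binds the product of Eda2r), rose from 0.552, 0.842, 0.608 and 0.435 CPM to 2.19, 2.25, 2.85 and 2.16 CPM. The groups did not overlap (1.95 on the log2 scale, SE 0.20; adjusted p 6.04e-08 in edgeR). Eda2r held 0.308 to 0.487 CPM in control and 0.266 to 0.728 CPM in Klf4 libraries and was not called (edgeR adjusted p 0.712), and Edar, the other ectodysplasin receptor gene, had no counts. Bdnf, a neurotrophin whose precursor binds p75, rose by 0.32 (SE 0.11, edgeR adjusted p 0.0268). The intramembrane protease gene Sppl2b rose by 0.16. Both Bdnf and Sppl2b lost their calls without Klf4 replicate 1 or 4, and Bdnf also without Klf4 replicate 3 or control replicate 4. Exons of Gm45346 on the other strand overlap Bdnf.

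Several members are known best from immune cells, so markers of other cell types were read in the same libraries. Of 10 macrophage and dendritic cell markers 3 were tested and 0 were called by edgeR, also at an unadjusted p under 0.05 and by DESeq2, with summed levels of 6.79 to 7.66 CPM in control and 6.38 to 8.65 CPM in Klf4 libraries. Ptprc, which encodes the pan-leukocyte marker CD45, was at or below 0.144 CPM in every library. Of 10 lymphocyte markers 4 were tested and Cd4, Cd8a and Cd79a were higher, with sums of 3.33 to 4.18 and 5.51 to 6.33 CPM. The share of all tested genes called higher was 21.1%. Cd3d, Ms4a1 and Ncr1 had no counts.

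Markers outside the immune system also moved with the groups. Of 6 fibroblast markers 4 were tested, and Dcn, Pdgfra and Col1a1 were higher and 1 was not called (sums 2.61 to 3.84 and 21.0 to 27.3 CPM). Lum was at 0. Over all tested genes 36.6% were called, 21.1% higher and 15.5% lower. Of 7 keratinocyte markers 3 were tested, and Krt14 and Lor were higher and 1 was not called (sums 4.01 to 4.44 and 22.6 to 34.4 CPM). Ivl and Trp63 were at 0, and Krt1 was at 0 in control libraries. Of 5 endothelial markers 3 were tested, and Cdh5 was higher and 2 were not called (sums 4.10 to 4.48 and 5.002 to 5.28 CPM). Cdh5 and Kdr were at 0 in control libraries. Cdh5 thus passed the filter through Klf4 libraries only, and could be tested only because it was present there. The part of these and the β-cell markers in the changes of the family was not tested.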

How the data were processed

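Messenger RNA was sequenced from 8 MIN6 cultures, 4 per group, and the authors deposited 1 table of raw counts per gene. FastQC, STAR, featureCounts, edgeR and the mouse build mm10 are named in the submitters' processing notes. The versions, the annotation and the strand setting were not given in the sources used here. The extract protocol speaks of islets, while every sample is labelled Min6. All gene identifiers and symbols matched GENCODE M21 (GRCm38), from which coordinates and exon lengths were taken.

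The counts were fitted with edgeR 4.0.16 in R 4.3.3 (filterByExpr with a minimum count of 10, TMM factors, quasi-likelihood test, batch as covariate), with Benjamini-Hochberg adjustment over 18266 genes. The standard error is the log2 fold change divided by the square root of the F statistic. Differences between batches were tested as an interaction over all genes. The main edgeR fit was tested on simulated data in which few genes changed, and the other fits were not. Alternatives were DESeq2 1.42.0, other factors, filters and covariates, and leaving out each library. Intervals on ratios of counts are exact, at 95%, and like floors of 3 counts cover counting error only.

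Same-numbered libraries deviated together (r 0.459 to 0.614 over 10485 genes), but with batch means removed r was -0.05 and 0.08, so the numbers pair the libraries only by batch. The fit with the number as a block is given where it changed a call. Nothing in the labels says whether the cultures were independent beyond the word biological. The main fit has a batch term, so its p-values measure the spread between these cultures within batches.

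The members and the lists were chosen with earlier results of these data known. Members changed at least 2-fold are given in full, other members by fold change or counts, and list genes mainly by the 3 largest changes of each list; the other called list genes are named with their fold change. The values of 1 list gene are not reported here.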

Additional observations from a re-analysis of the deposited data

Results flagged for a closer look

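Cd40 in Klf4 replicate 3 stood apart from the other Klf4 libraries, at 1.22 CPM against 1.06 CPM in each of the other 3. This was 1 of 54 groups of 4 libraries checked, and chance alone sets apart about 1 in 20, or 2.7 groups. The rise of Ngfr was larger in batch 2 than in batch 1 by 0.32 on the log2 scale (edgeR interaction test, adjusted p 0.00236). The transfected gene Klf4 differed between batches in the same direction, by 0.37 (edgeR interaction test, adjusted p 0.0057). The part of the Klf4 level in the difference of Ngfr was not tested.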

How the results depend on the processing

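Of 194 values of the called members under the alternatives, 184 stayed on the same side of the threshold, 10 did not (9 of Tnfrsf14 and 1 of Tnfrsf25) and 0 changed sign. Leaving out 1 library gave 12 to 14 members changed, 11 to 13 higher and 1 lower, 5889 to 7074 of all genes, 16 to 20 pathway genes and a Klf4 log2 fold change of 6.88 to 7.02. Without the batch term 4116 genes changed in place of 6684, and 10 pathway genes in place of 21; the cause was not tested. With the replicate number as a block 6284 genes, 12 members and 18 pathway genes changed, and beside the lost calls named above it changed no other call of these sets. Only uncalled members changed sign. Without 1 library, Eda2r ranged from -0.0373 to 0.397, Ltbr from -0.0418 to 0.0595, Tnfrsf13b from -0.256 to 0.394, Tnfrsf26 from -0.11 to 0.187 and Tnfsf12 from -0.0929 to 0.0218. With factors from abundant genes Tnfrsf23 was at 0.0114 and Tnfsf12 at 0.0175. Tnfrsf8 ranged from 5.24 to 6.54 without 1 library and was not tested under a filter of 1 CPM in 4 libraries. Depth limits what can be said of the 17 members under the filter.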
